A study of Mus musculus with 48 samples.

Results

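Macrophages clear particles, modified lipoproteins and dying cells with scavenger receptors and with the TAM receptor tyrosine kinases. The 9 genes described here encode such receptors and a TAM ligand: Marco, Msr1, Mrc1, Cd36, Scarb1, Stab1, Mertk, Axl and Gas6. They were chosen by name, with earlier results of these data known, and are 9 of the 49315 genes in the deposited count table. All 9 passed the filter on low counts, which kept 13986 genes.

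The cells were bone marrow-derived macrophages from 16 mice, grown with M-CSF from conditioned medium and then rested overnight without M-CSF. The genotypes were LynKO (total knockout of the Src-family kinase Lyn), LynAKO and LynBKO (knockouts of the LynA and the LynB isoform) and wild type (WT), with 4 mice per genotype (2 male and 2 female). Cells of each mouse were treated for 2 h with 2 ng/mL lipopolysaccharide of S. Minnesota R595 (LPS, sensed by Toll-like receptor 4), with R848 (resiquimod, which mouse cells sense with Toll-like receptor 7) at 20 ng/mL or with M-CSF-free medium alone (NT). This gave 12 groups of 4 polyA RNA libraries, and all 12 share the overnight rest without M-CSF. The sources used here give no strain, age or allele of the mice. The libraries held 14974764 to 23321447 counts each.

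Class A scavenger receptors such as Marco and Msr1 are trimeric proteins that bind bacteria and modified low-density lipoprotein, and Mrc1 is the macrophage mannose receptor, a lectin. Cd36 and Scarb1 are class B receptors with a pair of membrane spans, which bind oxidised lipoprotein and fatty acids (Cd36) or high-density lipoprotein (Scarb1), and Stab1 (stabilin-1) is an endocytic receptor of alternatively activated macrophages. Mertk and Axl are TAM kinases: Gas6, a vitamin K-dependent protein, links them to phosphatidylserine on dying cells, and their signalling is known to dampen Toll-like receptor responses.

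Lyn itself was lower in LynKO than in WT in all 3 treatments. It averaged 90.6 ± 7.09 CPM in LynKO and 341 ± 17.0 CPM in WT with LPS, and 67.6 ± 4.15 CPM in LynKO and 177 ± 10.4 CPM in WT in NT cells (SD, n = 4; CPM are counts-per-million values with TMM scaling). LynAKO and LynBKO lay between, at 118 ± 11.48 and 125 ± 6.38 CPM in NT cells. For the marker lists, Xist and the Y-linked transcripts, CPM are instead scaled to the library total over all genes, without TMM. The 10 macrophage markers summed to between 24570 and 53540 CPM in every library. LynKO NT 4 and LynBKO NT 4, both labelled female, held Xist (294 and 148 CPM) together with Y-linked transcripts (a sum of 89.6 and 162 CPM). The sex labels of LynBKO NT 2 and NT 3, and their transcripts, are exchanged against those of the LPS and R848 libraries with the same numbers. Libraries of a genotype with the same number come from the same mouse by the labels, but for the LynBKO NT libraries, whose numbers did not pair with the others, and a fit with the mouse, or the replicate number between genotypes, as a block is given beside a result where it changes a call.

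The genes lie on GRCm38 as annotated by GENCODE M21. Marco (ENSMUSG00000026390) spans 120474538 to 120505024 of chromosome 1 on the minus strand, and Msr1 (ENSMUSG00000025044) 39581685 to 39642673 of chromosome 8 on the minus strand. Mrc1 (ENSMUSG00000026712) spans 14229392 to 14332057 and Mertk (ENSMUSG00000014361) 128698956 to 128802894 of chromosome 2, both on the plus strand. Cd36 (ENSMUSG00000002944) spans 17781690 to 17888801 and Scarb1 (ENSMUSG00000037936) 125277087 to 125341094 of chromosome 5, both on the minus strand. Stab1 (ENSMUSG00000042286) spans 31139013 to 31168641 of chromosome 14, Axl (ENSMUSG00000002602) 25757273 to 25788705 of chromosome 7 and Gas6 (ENSMUSG00000031451) 13465374 to 13494490 of chromosome 8, all on the minus strand. Exons of Stab1 overlap those of Nt5dc2 on the opposite strand by 112 bases, and exons of Gas6 those of Tmem255b by 34 bases. The sources used here do not say whether the counting used strand. Tmem255b had 15 counts in the 48 libraries together, against 143971 for Gas6, and Nt5dc2 had 48175, against 519471 for Stab1.

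RefSeq promoter sequence (GRCm38.p6, from 250 bases before to 50 after the start) was at hand for Marco, Mrc1, Cd36, Stab1, Mertk, Axl and Gas6. The 4 printed here belong to the gene that R848 raised most (Marco), the gene that both ligands lowered most (Mertk), and the genes with the largest rise (Cd36) and fall (Gas6) called in LynKO NT cells. They read 5′ to 3′ on the strand of the gene, and capitals mark matches to the motifs searched. The Marco promoter is chr1:120504975-120505274 (minus strand), the Mertk promoter chr2:128698665-128698964 (plus strand), the Cd36 promoter chr5:17835847-17836146 (minus strand, inside the GENCODE span of the gene) and the Gas6 promoter chr8:13494486-13494785 (minus strand).
Marco: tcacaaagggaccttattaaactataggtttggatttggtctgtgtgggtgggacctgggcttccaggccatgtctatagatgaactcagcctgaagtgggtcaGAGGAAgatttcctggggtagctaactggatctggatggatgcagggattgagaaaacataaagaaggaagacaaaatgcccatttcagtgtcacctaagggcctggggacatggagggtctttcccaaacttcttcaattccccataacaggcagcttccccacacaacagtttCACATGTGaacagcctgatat
Mertk: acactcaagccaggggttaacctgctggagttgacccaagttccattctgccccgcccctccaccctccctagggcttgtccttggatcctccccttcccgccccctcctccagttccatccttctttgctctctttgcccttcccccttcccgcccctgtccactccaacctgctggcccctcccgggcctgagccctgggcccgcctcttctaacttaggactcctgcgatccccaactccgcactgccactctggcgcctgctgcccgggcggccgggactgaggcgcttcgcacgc
Cd36: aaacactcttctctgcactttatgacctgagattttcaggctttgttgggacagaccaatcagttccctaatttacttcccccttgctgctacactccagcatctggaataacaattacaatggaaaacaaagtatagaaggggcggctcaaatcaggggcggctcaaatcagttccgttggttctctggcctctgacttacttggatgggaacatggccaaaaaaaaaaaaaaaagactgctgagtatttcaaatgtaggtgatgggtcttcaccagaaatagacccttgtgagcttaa
Gas6: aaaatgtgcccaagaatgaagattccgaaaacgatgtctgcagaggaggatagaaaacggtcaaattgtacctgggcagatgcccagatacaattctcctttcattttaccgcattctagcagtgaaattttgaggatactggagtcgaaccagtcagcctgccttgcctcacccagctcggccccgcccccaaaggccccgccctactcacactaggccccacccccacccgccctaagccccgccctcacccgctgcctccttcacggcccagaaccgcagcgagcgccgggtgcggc

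Both strands were searched for the ISRE core GAAANNGAA, the kappa B consensus, the AP-1 site TGANTCA, the CRE TGACGTCA, the PU.1 core GAGGAA and the MiT boxes CACGTG and CATGTG. Of all 32851 promoters of this length, 8.56% held the ISRE core, 8.46% the kappa B consensus, 7.81% the AP-1 site, 1.79% the CRE, 28.3% the PU.1 core, 7.15% CACGTG and 14.2% CATGTG. The Marco window held GAGGAA 146 bases before the start and CATGTG on both strands, overlapping, after it. The windows of Mrc1 and Stab1 also held GAGGAA and CATGTG, and that of Axl GAGGAA alone. None of the 7 motifs was found in the windows of Cd36, Mertk and Gas6.

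Per kilobase of exon, Gas6 and Stab1 were the most abundant of the 9 in WT NT cells and Marco the least. The level was 87.0 ± 3.28 CPM per kb for Gas6, 73.1 ± 5.20 for Stab1, 49.3 ± 12.2 for Cd36 and 30.0 ± 3.93 for Axl (SD, n = 4). It was 19.7 ± 0.817 CPM per kb for Msr1, 14.6 ± 0.445 for Mertk, 8.79 ± 0.518 for Scarb1, 3.42 ± 0.735 for Mrc1 and 0.622 ± 0.647 for Marco. With LPS, Msr1 reached 146 ± 16.7 CPM per kb in WT, the highest level of the 9 in that group, and Mertk stood at 3.50 ± 0.439 CPM per kb.

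The order of a gene's 12 group means was mostly one of neighbours that did not differ. For Mrc1, Cd36 and Axl none of the 11 steps between neighbouring means exceeded the larger SD of the pair. For Mertk the steps below LynBKO NT and below LynKO NT did, which set the 4 NT groups (45.9 to 63.5 CPM) apart from the 8 ligand groups (10.4 to 18.8 CPM). For Msr1 the steps below R848 LynBKO and below R848 LynAKO did, so that all 8 ligand groups (758 to 965 CPM) lay above the 4 NT groups (113 to 130 CPM). For Gas6, 4 of the 11 steps did, and its 3 LynKO groups were the lowest 3, the highest of them (LynKO NT, 132 CPM) next to R848 LynBKO (133 CPM). For Marco only the step between LPS LynKO (3.62 CPM) and NT WT (1.20 CPM) did, and for Stab1 and Scarb1 3 and 2 of the 11 steps did.

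**Figure D1:**
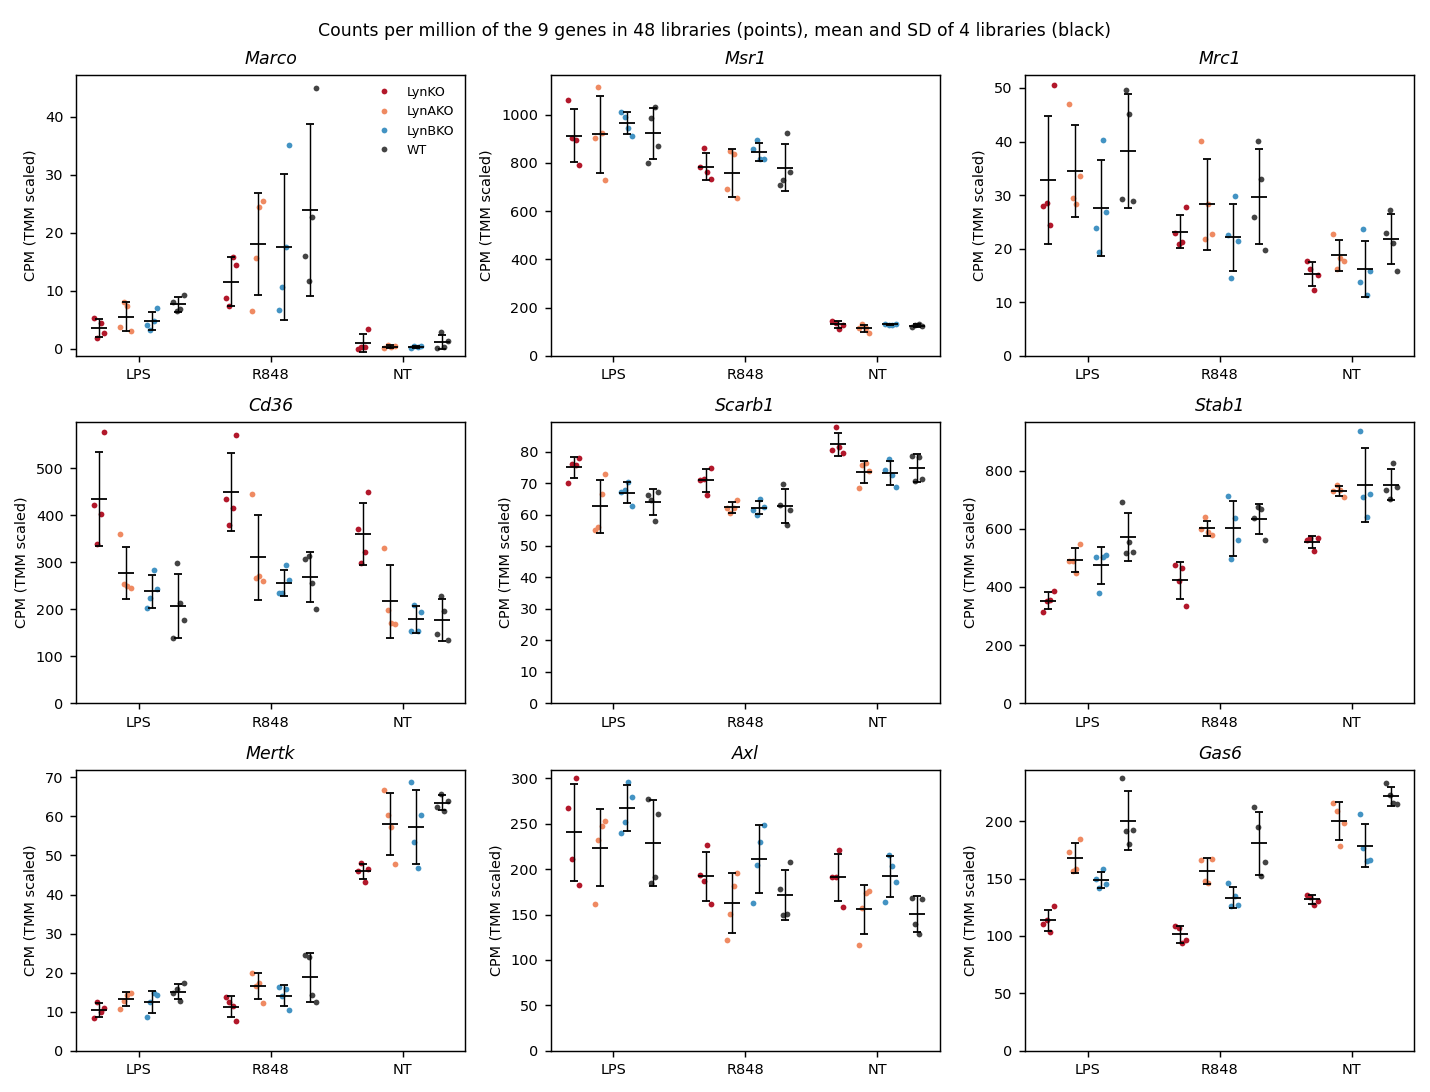
CPM (TMM scaled, linear y axes from 0 or just below) of each of the 9 genes in the 48 libraries, by treatment along the x axis and coloured by genotype. Points are libraries, and black bars are the mean and SD of 4. Mertk is low and Msr1 high in every ligand library, and the LynKO points of Gas6 and Stab1 lie below those of WT and those of Cd36 above them.

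Both ligands lowered Mertk and raised Msr1 and Marco in all 4 genotypes. LPS also raised Mrc1 in all 4 genotypes and lowered Stab1 in all 4, and R848 lowered Gas6 and Scarb1 in all 4. Among the 9 genes, LPS raised 3 and lowered 3 in LynKO, where 61.7% of all tested genes changed (31% rose and 30.7% fell). It raised 4 and lowered 4 in LynAKO (of all genes 60.7% changed, 30.4% up and 30.3% down), raised 5 and lowered 3 in LynBKO (67.3%, 33.9% up and 33.4% down) and raised 4 and lowered 3 in WT (61.6%, 31.5% up and 30% down). R848 raised 3 and lowered 4 in LynKO (of all genes 55.3% changed, 28.4% up and 27% down) and raised 4 and lowered 4 in LynAKO (56%, 29% up and 26.9% down). It raised 3 and lowered 4 in LynBKO (63.5%, 31.3% up and 32.2% down) and raised 3 and lowered 3 in WT (56.7%, 30% up and 26.7% down). In each of these 8 comparisons 6 to 8 of the 9 genes were called, beside 55.3% to 67.3% of all genes. The 9 were named with earlier results of these data known, and the difference in share was not tested. A call here is an adjusted p under 0.05 in edgeR's quasi-likelihood test, adjusted over all 13986 genes, and a log2 fold change is printed with its SE. In bulk RNA, fewer cells of a kind and less RNA per cell cannot be told apart.

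Msr1, the class A receptor first known for uptake of acetylated lipoprotein, had 801, 988, 1032 and 870 CPM in the LPS libraries of WT and 709, 728, 924 and 763 CPM with R848, against 118, 128, 130 and 124 CPM in NT. Every ligand library lay far above every NT library, in the knockouts as well. The log2 fold change with LPS was 2.81 ± 0.10 in LynKO, 3.02 ± 0.14 in LynAKO, 2.89 ± 0.06 in LynBKO and 2.90 ± 0.10 in WT (edgeR adjusted p = 1.29e-12, 5.05e-12, 6.82e-17 and 6.91e-14). With R848 it was 2.58 ± 0.10 in LynKO, 2.76 ± 0.14 in LynAKO, 2.70 ± 0.06 in LynBKO and 2.67 ± 0.10 in WT, and all 4 passed.

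Marco, the class A receptor of inhaled and bacterial particles, was near the detection floor without ligand. It had 103, 125, 95 and 129 counts in the LPS libraries of WT and 260, 190, 321 and 622 counts with R848, against 3, 71, 10 and 38 counts in NT. In LynKO it had 89, 41, 65 and 43 counts with LPS and 151, 113, 256 and 230 with R848, against 0, 7, 6 and 70 in NT. The WT ligand libraries all lay above the NT libraries, and in LynKO the NT 4 library lay among the LPS libraries on the CPM scale. The log2 fold change with LPS was 1.83 ± 0.69 in LynKO, 3.89 ± 0.54 in LynAKO, 3.62 ± 0.57 in LynBKO and 2.65 ± 0.52 in WT (edgeR adjusted p = 0.0302, 7.15e-06, 2.44e-05 and 0.000263). With R848 it was 3.52 ± 0.65 in LynKO, 5.59 ± 0.51 in LynAKO, 5.49 ± 0.52 in LynBKO and 4.31 ± 0.51 in WT, with a highest adjusted p of 0.000254. The LynKO values rest on mouse 4. Without it the changes were 4.15 with LPS and 5.62 with R848, and without mouse 1, 2 or 3 the LPS change (1.16, 1.77 and 1.41) was no longer called (edgeR adjusted p = 0.184, 0.0693 and 0.17). It was not called in DESeq2 either (1.87, adjusted p = 0.0996). Leaving out only LynKO NT 4 among the LynKO libraries gave 4.06 ± 0.60 with LPS and 5.74 ± 0.55 with R848.

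Mrc1 had 29.3, 49.6, 45.2 and 28.9 CPM in the LPS libraries of WT, against 22.9, 27.2, 21.1 and 15.9 CPM in NT. The WT groups did not overlap, though by a narrow gap. The log2 fold change with LPS was 1.10 ± 0.19 in LynKO, 0.88 ± 0.19 in LynAKO, 0.76 ± 0.24 in LynBKO and 0.83 ± 0.21 in WT (edgeR adjusted p = 0.000124, 0.000673, 0.00933 and 0.00243). In LynBKO it was 1.16 without the libraries numbered 2 and 0.37 without those numbered 3, where the call was lost (edgeR adjusted p = 0.115). With R848 Mrc1 rose in LynKO (0.59 ± 0.19, edgeR adjusted p = 0.0174) and LynAKO (0.61 ± 0.19, adjusted p = 0.0122). In both, leaving out mouse 3 ended the call (adjusted p = 0.0584 and 0.0509). It did not pass in LynBKO (0.44 ± 0.24, adjusted p = 0.124) or WT (0.48 ± 0.21, adjusted p = 0.0647). With the mouse as a block it passed in WT (0.45, adjusted p = 0.00147), as it did without WT mouse 4 (adjusted p = 0.039) and in LynBKO without the libraries numbered 2 (0.85, adjusted p = 0.00164). Without those numbered 3 the LynBKO change was 0.13 (adjusted p = 0.605). With no filter on low counts it passed in both (adjusted p = 0.000294 in LynBKO and 0.00106 in WT).

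Among the class B receptors, the changes that passed were rises of Cd36 and falls of Scarb1, all below 1 on the log2 scale. Cd36 had 306, 312, 256 and 199 CPM in the R848 libraries of WT, against 148, 229, 197 and 134 CPM in NT, and the groups overlapped. With R848 it changed by 0.31 ± 0.16 in LynKO, 0.53 ± 0.21 in LynAKO, 0.52 ± 0.11 in LynBKO and 0.63 ± 0.20 in WT on the log2 scale (edgeR adjusted p = 0.12, 0.0438, 0.000695 and 0.0137). The WT call was lost without mouse 1 (adjusted p = 0.0778), and the LynAKO call without mouse 2, 3 or 4 (adjusted p = 0.0983, 0.131 and 0.113) and in DESeq2 (0.53, adjusted p = 0.112). In LynKO it passed with the mouse as a block (0.31, adjusted p = 5.94e-05) and without mouse 4 (0.29, adjusted p = 0.0125). With LPS the changes were 0.26 ± 0.16 in LynKO, 0.35 ± 0.21 in LynAKO, 0.42 ± 0.11 in LynBKO and 0.24 ± 0.20 in WT, and only LynBKO passed (edgeR adjusted p = 0.00373). That call was lost without the libraries numbered 3 (0.25, adjusted p = 0.0528) and in 1 model of all 48 libraries (0.42, adjusted p = 0.0783). With the mouse as a block LynKO (0.25, adjusted p = 0.000323) and LynAKO (0.39, adjusted p = 3.18e-05) passed as well. They also did without LynKO mouse 4 (adjusted p = 0.0463) and without LynAKO mouse 1 (adjusted p = 0.000591).

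Scarb1 ranged from 55.2 to 87.7 CPM over all 48 libraries. With R848 it fell, with a log2 fold change of -0.23 ± 0.07 in LynKO, -0.23 ± 0.09 in LynAKO, -0.24 ± 0.06 in LynBKO and -0.22 ± 0.08 in WT (edgeR adjusted p = 0.00813, 0.0383, 0.00275 and 0.0278). All R848 libraries lay below all NT libraries of their genotype. With LPS the changes were -0.14 ± 0.07 in LynKO, -0.23 ± 0.09 in LynAKO, -0.13 ± 0.06 in LynBKO and -0.21 ± 0.08 in WT (edgeR adjusted p = 0.0744, 0.0322, 0.0696 and 0.0353). These calls turn on libraries: those of LynAKO and WT with LPS were lost without mouse 1, 2 or 3 (adjusted p of 0.0865, 0.228 and 0.103 in LynAKO and of 0.0721, 0.0501 and 0.169 in WT). With R848 they were lost in LynKO without mouse 2 or 3 (0.0602 and 0.0837), in LynAKO likewise (0.144 and 0.167) and in WT without mouse 1, 3 or 4 (0.053, 0.113 and 0.0677). With no filter on low counts the calls of Scarb1 with LPS in LynAKO and WT (adjusted p = 0.06 and 0.0578) and with R848 in LynAKO (adjusted p = 0.0625) were lost as well. The LPS change in LynKO passed with the mouse as a block (adjusted p = 0.0477) and without mouse 4 (adjusted p = 0.0318), and that in LynBKO without NT 4 (-0.16, adjusted p = 0.0355).

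Stab1 had 691, 516, 555 and 521 CPM in the LPS libraries of WT, against 733, 703, 828 and 743 CPM in NT. All 4 LPS libraries lay below all 4 NT libraries, in each genotype. With LPS it fell, by a log2 change of -0.66 ± 0.10 in LynKO, -0.57 ± 0.08 in LynAKO, -0.67 ± 0.13 in LynBKO and -0.38 ± 0.10 in WT (edgeR adjusted p = 1.71e-05, 4.4e-06, 0.000145 and 0.00214). With R848 the change was -0.41 ± 0.10 in LynKO, -0.27 ± 0.07 in LynAKO and -0.32 ± 0.12 in LynBKO (edgeR adjusted p = 0.00189, 0.00534 and 0.0323). The LynBKO call was lost without the libraries numbered 2 or 4 (adjusted p = 0.0769 and 0.103), or without NT 4 alone (adjusted p = 0.0517). In WT the R848 change was -0.22 ± 0.10 (edgeR adjusted p = 0.0639) and passed with the mouse as a block (-0.22, adjusted p = 0.0282) or without mouse 1 (-0.25, adjusted p = 0.0325), and in DESeq2 (-0.23, adjusted p = 0.0465). Several marker lists moved with these changes. Among them were the 5 endothelial markers, of a cell type that also expresses Stab1, though nearly all of their sum was Vwf. In LynKO they summed to 37 to 52.8 CPM with LPS and 32.5 to 57.3 CPM with R848, against 71.7 to 84.1 CPM in NT. In WT they summed to 44.1 to 60.6 CPM with LPS and 51.6 to 82.3 CPM with R848, against 72.0 to 94.6 CPM in NT. The mean sum of the 10 macrophage markers in WT was 47940 CPM in NT, 33550 CPM with LPS and 37080 CPM with R848. In the same order it was 1.36, 7.86 and 8.09 CPM for the 7 dendritic cell markers. Most counts of that list were of Xcr1 (3751 in the 48 libraries together, against 438 for Flt3, the next). For the 8 stromal markers the mean sum was 2.4, 12.9 and 6.86 CPM, and most of their counts were of Pdgfrb (4764, against 229 for Col1a1, the next). The part of any of these lists in the changes of Stab1 was not tested.

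Mertk, the TAM receptor through which resting macrophages take up dying cells, had the largest fall of the 9. It had 8.41, 12.5, 9.87 and 10.97 CPM in the LPS libraries of LynKO and 14.7, 15.8, 12.8 and 17.3 CPM in those of WT. In NT cells it had 46.2, 47.97, 43.2 and 46.5 CPM in LynKO and 62.5, 65.9, 61.4 and 64.1 CPM in WT. No ligand library of any genotype reached an NT library of that genotype. With LPS Mertk fell, with a log2 fold change of -2.14 ± 0.15 in LynKO, -2.14 ± 0.15 in LynAKO, -2.18 ± 0.16 in LynBKO and -2.05 ± 0.17 in WT, to 0.241 times its NT level in WT (edgeR adjusted p = 3.36e-09, 1.24e-09, 1.24e-09 and 9.05e-09). With R848 the change was -2.04 ± 0.15 in LynKO, -1.80 ± 0.15 in LynAKO, -2.02 ± 0.16 in LynBKO and -1.72 ± 0.17 in WT, to 0.304 times its NT level in WT, and the highest adjusted p was 1.06e-07.

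Axl, the TAM receptor known to be raised by interferon, had 277, 184, 192 and 261 CPM in the LPS libraries of WT, against 168, 140, 129 and 167 CPM in NT. The WT groups did not overlap. LPS raised it, with a log2 fold change of 0.52 ± 0.16 in LynAKO, 0.47 ± 0.11 in LynBKO and 0.61 ± 0.14 in WT (edgeR adjusted p = 0.00974, 0.0013 and 0.000933). In LynKO the change was 0.33 ± 0.14 (edgeR adjusted p = 0.0591). It passed there with the mouse as a block (0.31, adjusted p = 0.000266), without mouse 4 (0.36, adjusted p = 0.0102) and in DESeq2 (adjusted p = 0.0441). With R848 the changes were -0.0078 ± 0.14 in LynKO, 0.07 ± 0.16 in LynAKO, 0.14 ± 0.11 in LynBKO and 0.21 ± 0.14 in WT, and none passed (the lowest edgeR adjusted p was 0.199). In WT it passed with the mouse as a block (0.21, adjusted p = 0.0175).

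Gas6, the ligand of these kinases, had 109, 107, 94.0 and 96.1 CPM in the R848 libraries of LynKO and 212, 195, 152 and 164 CPM in those of WT. In NT cells it had 136, 134, 127 and 130 CPM in LynKO and 233, 223, 216 and 215 CPM in WT. With R848 it fell in each genotype, by a log2 change of -0.39 ± 0.07 in LynKO, -0.34 ± 0.08 in LynAKO, -0.42 ± 0.08 in LynBKO and -0.27 ± 0.11 in WT (edgeR adjusted p = 0.000296, 0.00253, 0.000106 and 0.0387). All R848 libraries lay below all NT libraries of their genotype, but the WT call was lost without mouse 2, 3 or 4 (adjusted p = 0.0751, 0.104 and 0.142). With LPS the change was -0.22 ± 0.07 in LynKO, -0.26 ± 0.08 in LynAKO and -0.26 ± 0.07 in LynBKO (edgeR adjusted p = 0.0153, 0.0153 and 0.00534), and -0.13 ± 0.10 in WT (adjusted p = 0.281). The LynKO call was lost without mouse 1, 2 or 3 (adjusted p = 0.0783, 0.0659 and 0.0834) and the LynAKO call without mouse 1 or 2 (adjusted p = 0.0661 and 0.139).

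**Figure D2:**
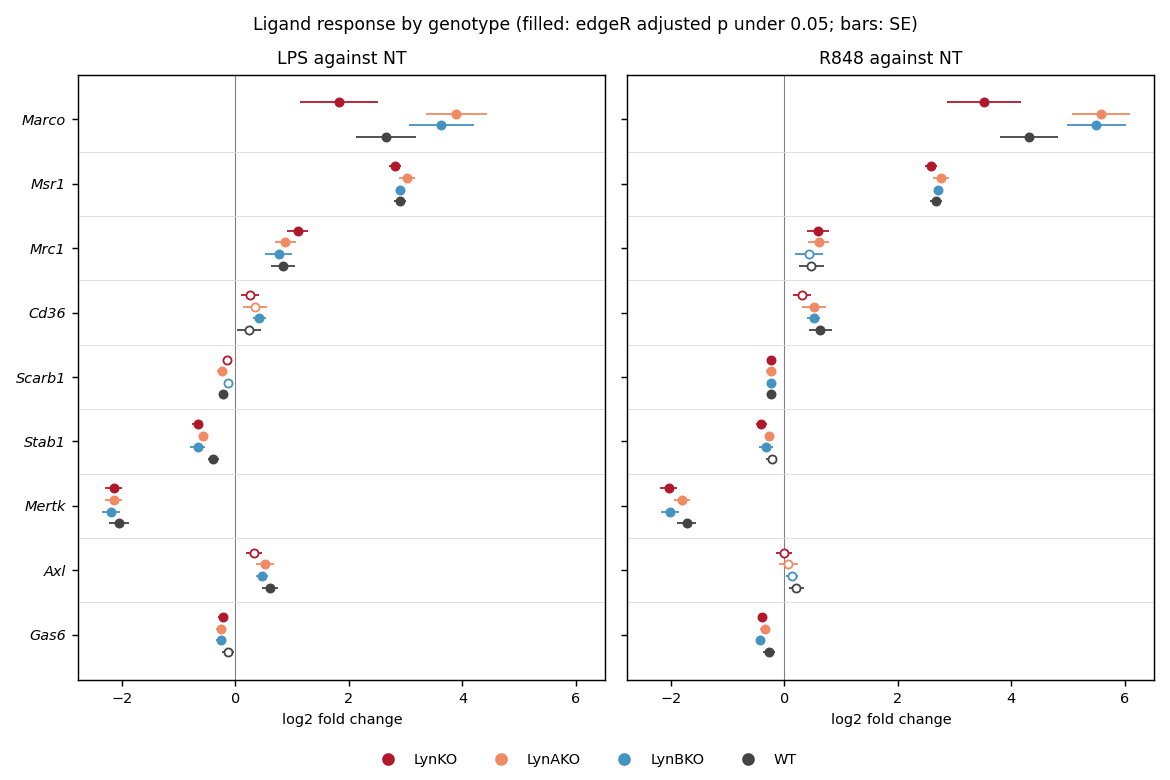
Log2 fold change of each gene (x axis) with LPS (left) and R848 (right) against NT, by genotype, with the SE as a bar; filled points passed at an edgeR adjusted p under 0.05. Msr1 and Marco lie right of 0 and Mertk near -2 in every genotype, while the other genes lie within about 1 of 0.

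The 6 differences between a knockout's ligand response and that of WT were tested for each of the 9 genes in 1 model of 48 libraries, and none of the 54 passed in edgeR or DESeq2, nor had any an unadjusted p under 0.05. Over all genes, 0.1% passed for LPS and 0.193% for R848 in LynKO, and 0% in LynAKO and LynBKO with either ligand. For Mertk the LPS response of LynKO minus that of WT was -0.07 (95% interval -0.57 to 0.43) and the R848 difference -0.27 (-0.77 to 0.22). For Msr1 the LPS difference was -0.06 (-0.36 to 0.23) and for Gas6 -0.07 (-0.32 to 0.18). For Marco the interval was wide, at -0.80 (-2.69 to 1.08) with LPS, and without LynKO NT 4 and LynBKO NT 4 the difference was 1.41 ± 1.15, with the other sign and also not called.

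Set against each other, the ligands differed most for Marco, which was lower with LPS than with R848. In WT it had 8.05, 6.46, 6.80 and 9.20 CPM with LPS, against 15.9, 11.7, 22.8 and 45.0 CPM with R848. The LPS libraries all lay below the R848 libraries in WT and LynKO and overlapped them in LynAKO and LynBKO. The log2 difference was -1.69 ± 0.57 in LynKO, -1.70 ± 0.39 in LynAKO, -1.87 ± 0.38 in LynBKO and -1.66 ± 0.44 in WT (edgeR adjusted p = 0.0574, 0.00471, 0.00137 and 0.0114). In LynKO it passed with the mouse as a block (-1.63, adjusted p = 0.0102) and without mouse 4 (-1.47, adjusted p = 0.00791), and in 1 model of all 48 libraries (-1.69, adjusted p = 0.0244). The LynAKO call was lost without mouse 4 (-1.27, adjusted p = 0.0539), and the WT call without mouse 3 or 4 (-1.61 and -1.26, adjusted p = 0.0506 and 0.0863) and in DESeq2 (adjusted p = 0.085).

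In all, 0 of the 9 genes passed in edgeR between the ligands in LynKO (15.9% of all genes did, 9.73% higher and 6.13% lower with LPS), 2 in LynAKO (17.6%, 9.7% higher and 7.92% lower), 4 in LynBKO (26.5%, 14.2% higher and 12.3% lower) and 1 in WT (21%, 10.9% higher and 10% lower). In LynKO 6 of the 9 had an unadjusted p under 0.05 in edgeR, as had 3846 of all 13986 genes, and 1 of the 9 passed in DESeq2. With the mouse as a block 5 of the 9 passed in LynKO, 5 in LynAKO and 5 in WT. The block also raised the number called over all genes in LynAKO (given below). Beside Marco, Stab1 was lower with LPS in LynAKO (-0.30 ± 0.07, edgeR adjusted p = 0.00974) and LynBKO (-0.34 ± 0.12, adjusted p = 0.0497). In LynBKO Msr1 (0.19 ± 0.05, adjusted p = 0.0153) and Axl (0.34 ± 0.11, adjusted p = 0.0354) were higher with LPS. Each of these 4 calls was lost without some libraries: that of Stab1 in LynAKO was lost without mouse 1, 2 or 3 (adjusted p = 0.0629, 0.138 and 0.11) and that in LynBKO without any of 4 mice (adjusted p of 0.0719 to 0.0973). Msr1 was lost without mouse 1, 2 or 3 (0.0658, 0.0592 and 0.119) and Axl without mouse 2 or 3 (0.0968 and 0.127). In 1 model of all 48 libraries the calls of Msr1 and Axl in LynBKO (adjusted p = 0.207 and 0.139) and of Stab1 in LynAKO (adjusted p = 0.0508) were lost, and with no filter that of Msr1 (adjusted p = 0.0506). Gas6 passed in LynBKO without mouse 1 (0.20, adjusted p = 0.0387).

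With the mouse as a block Axl was higher with LPS in LynKO (0.32, adjusted p = 0.000908), LynAKO (0.45, adjusted p = 5.43e-06) and WT (0.39, adjusted p = 0.000566), where the unblocked adjusted p were 0.139, 0.0662 and 0.0505. In the same fit Msr1 was higher with LPS in LynKO, LynAKO and WT (0.22, 0.26 and 0.23, adjusted p = 0.0223, 0.00226 and 0.0226), and so was Mrc1 (0.48, 0.29 and 0.36, adjusted p = 0.0123, 0.0284 and 0.0191). Stab1 in LynKO (-0.25, adjusted p = 0.0464) and Cd36 in WT (-0.42, adjusted p = 0.0177) were lower. Without the block, leaving out mouse 4 alone also gave calls of Axl and Stab1 in LynKO (adjusted p = 0.023 and 0.000435), of Mertk and Msr1 in LynAKO (-0.51 and 0.31, adjusted p = 0.00819 and 0.0408) and of Mertk in WT (-0.55, adjusted p = 0.0379). Axl passed in LynAKO without mouse 1 (adjusted p = 0.0111), in DESeq2 (0.46, adjusted p = 0.04) and in 1 model of all 48 libraries (0.46, adjusted p = 0.0336). In that model Msr1 passed in LynAKO as well (0.28, adjusted p = 0.0495). For WT, Axl passed in DESeq2 (0.42, adjusted p = 0.0223) and in edgeR with RLE size factors (0.42, adjusted p = 0.0403).

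**Figure D3:**
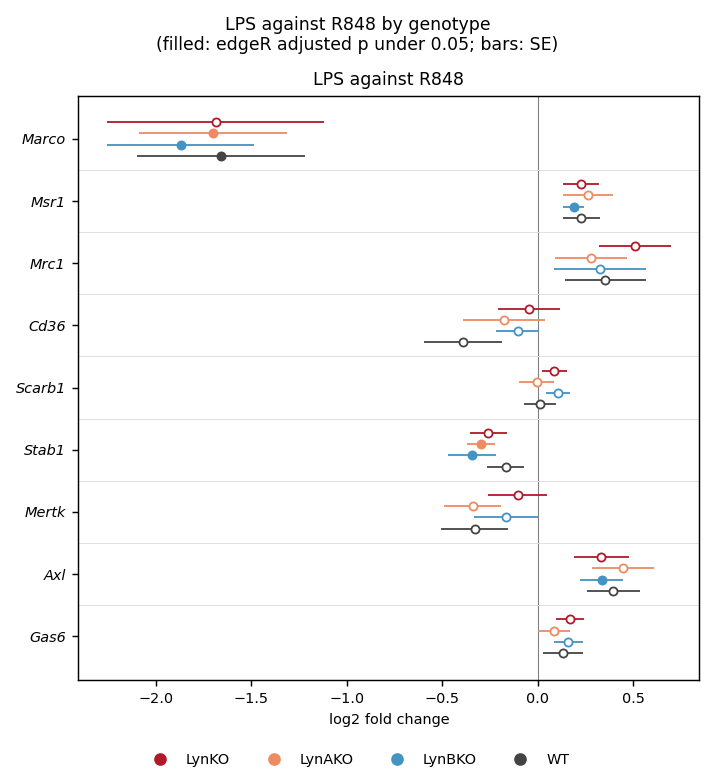
Log2 difference between LPS and R848 (x axis, LPS over R848) for each gene and genotype, with the SE as a bar; filled points passed at an edgeR adjusted p under 0.05. Marco lies between -1.87 and -1.66 in all 4 genotypes, and the other genes lie within about 0.5 of 0.

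LynKO cells had less Gas6 and Stab1 and more Cd36 than WT in all 3 treatments, and less Mertk in NT cells. In NT cells 1 of the 9 genes was higher and 3 were lower in LynKO than in WT, where 9.9% of all genes differed (5.43% higher and 4.47% lower). With LPS 1 was higher and 3 were lower (8.49% of all genes, 4.43% higher and 4.06% lower), and with R848 1 was higher and 2 were lower (5.93%, 3.19% higher and 2.74% lower). The median log2 difference of the 9 genes was -0.26 in NT cells, -0.20 with LPS and -0.36 with R848, against 0.0049, 0.02 and 0.01 over all tested genes. These medians are the values of Marco in NT cells and of Mrc1 with LPS and with R848, none of them called. A shift of the 9 genes as a set was not tested.

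Gas6 showed the clearest difference. It had 111, 114, 104 and 126 CPM in LynKO, against 238, 191, 180 and 192 CPM in WT with LPS. In NT and R848 cells too (values above), all 4 LynKO libraries lay below all 4 WT libraries. The log2 difference was -0.74 ± 0.07 in NT cells, -0.80 ± 0.09 in LPS cells and -0.84 ± 0.10 in R848 cells, which is 0.60, 0.576 and 0.56 times the WT level (edgeR adjusted p = 3.39e-06, 1.73e-05 and 8.7e-05). These 3 calls held in every alternative tried.

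Cd36 had 371, 298, 322 and 448 CPM in the NT libraries of LynKO, against 148, 229, 197 and 134 CPM in those of WT. With LPS it had 422, 338, 402 and 576 CPM in LynKO, against 140, 299, 212 and 177 CPM in WT. With R848 it had 435, 379, 416 and 570 CPM in LynKO, against 306, 312, 256 and 199 CPM in WT. No LynKO library overlapped WT in any treatment. In NT cells the log2 difference was 1.04 ± 0.20, with LPS it was 1.09 ± 0.19 and for R848 0.74 ± 0.17 (edgeR adjusted p = 0.00129, 0.0015 and 0.0153). The R848 call was lost without WT mouse 4 (0.62, adjusted p = 0.0537).

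Stab1 had 560, 568, 524 and 567 CPM in the NT libraries of LynKO, against 733, 703, 828 and 743 CPM in those of WT. With LPS it had 314, 353, 356 and 386 CPM in LynKO, against 691, 516, 555 and 521 CPM in WT. With R848 it had 475, 419, 464 and 335 CPM in LynKO, against 635, 673, 667 and 561 CPM in WT. The genotypes did not overlap in any treatment. In NT cells the log2 difference was -0.43 ± 0.08, with LPS it was -0.67 ± 0.11 and for R848 -0.58 ± 0.11 (edgeR adjusted p = 0.00145, 0.00053 and 0.00488).

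Mertk was lower in LynKO NT cells than in WT, and no library overlapped (log2 -0.45 ± 0.10, edgeR adjusted p = 0.00364; values above). That call was lost in 1 model of all 48 libraries (-0.47, adjusted p = 0.0711). With LPS all 4 LynKO libraries lay below WT as well, with a difference of -0.51 ± 0.16 (edgeR adjusted p = 0.0541), and with the replicate number as a block it passed (-0.52, adjusted p = 0.0142). It also did without LynKO mouse 2 (-0.62, adjusted p = 0.0431) or WT mouse 3 (-0.59, adjusted p = 0.0471), and in DESeq2 (-0.53, adjusted p = 0.0194). With R848 it had 13.7, 12.4, 11.6 and 7.57 CPM in LynKO, against 24.5, 24.0, 14.2 and 12.5 CPM in WT, and the groups overlapped. The difference was -0.74 ± 0.23 (edgeR adjusted p = 0.0605). Blocking on the replicate number made it a call (-0.73, adjusted p = 0.0012) and so did leaving out WT mouse 4 (-0.89, adjusted p = 0.0344), DESeq2 (-0.75, adjusted p = 0.0169) and 1 model of all 48 libraries (-0.74, adjusted p = 0.00615).

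Marco with LPS had 5.31, 1.92, 4.49 and 2.77 CPM in LynKO, against 8.05, 6.46, 6.80 and 9.20 CPM in WT. The groups did not overlap, and the log2 difference was -1.07 ± 0.31 (edgeR adjusted p = 0.0371). The call was lost without LynKO mouse 2 or 4 (adjusted p = 0.118 and 0.0969) and without WT mouse 1, 3 or 4 (adjusted p = 0.0853, 0.052 and 0.093). It was also lost in 1 model of all 48 libraries (-1.09, adjusted p = 0.223). With R848 the difference was -1.03 ± 0.48 (edgeR adjusted p = 0.226), and blocking on the replicate number made it a call (-0.95, adjusted p = 0.0123). In NT cells it was -0.26 ± 0.85 (edgeR adjusted p = 0.898) and, without LynKO NT 4, -2.50 ± 0.93 (adjusted p = 0.12).

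The other 4 genes did not pass between LynKO and WT in edgeR within a treatment. All 4 LynKO libraries of Scarb1 lay above WT in NT cells (0.15 ± 0.06, edgeR adjusted p = 0.142) and with LPS (0.25 ± 0.09, edgeR adjusted p = 0.0816), where it passed in 1 model of all 48 libraries (0.23, adjusted p = 0.026). In NT cells Axl differed by 0.35 ± 0.13 (edgeR adjusted p = 0.0885) and Mrc1 by -0.50 ± 0.19 (edgeR adjusted p = 0.103). Axl passed without LynKO mouse 4 (0.43, adjusted p = 0.0468) and Mrc1 without WT mouse 4 (-0.62, adjusted p = 0.0484). Msr1 differed by 0.06 ± 0.08 in NT cells, 0.0029 ± 0.11 in LPS cells and 0.0068 ± 0.10 in R848 cells (edgeR adjusted p = 0.724, 0.991 and 0.979). Its 95% interval in NT cells ran from -0.11 to 0.24.

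Some marker lists moved with these differences. The 10 macrophage markers summed to 32100 to 34890 CPM in LynKO NT cells, against 45470 to 53540 CPM in WT, to 24570 to 26700 CPM in LynKO, against 32200 to 36090 CPM in WT, with LPS, and to 25500 to 30800 CPM in LynKO, against 36080 to 38640 CPM in WT, with R848. None of the 10 was at 0, and Lyz2 made up most of the sum. The 10 markers of neutrophils and their progenitors summed to 15.4 to 24.1 CPM in LynKO NT cells, against 29.6 to 61.1 CPM in WT, mostly from Mmp8, and to 16.5 to 27.1 CPM with the ligands in LynKO, against 29.2 to 63.0 CPM in WT, while Mpo, Elane and Ly6g stayed under 1 CPM in every library. The part of either in the differences of Gas6, Stab1, Mertk and Cd36 was not tested. The 5 endothelial markers, a cell type that also expresses Stab1 and Cd36, summed to 71.7 to 84.1 CPM in LynKO NT cells, against 72.0 to 94.6 CPM in WT. With LPS they summed to 37 to 52.8 CPM in LynKO, against 44.1 to 60.6 CPM in WT, and with R848 to 32.5 to 57.3 CPM in LynKO, against 51.6 to 82.3 CPM in WT, and their part was not tested either. Nearly all of it was Vwf, and Cdh5, Tek and Emcn were at most at 1.51, 0.334 and 0.0434 CPM in any library.

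**Figure D4:**
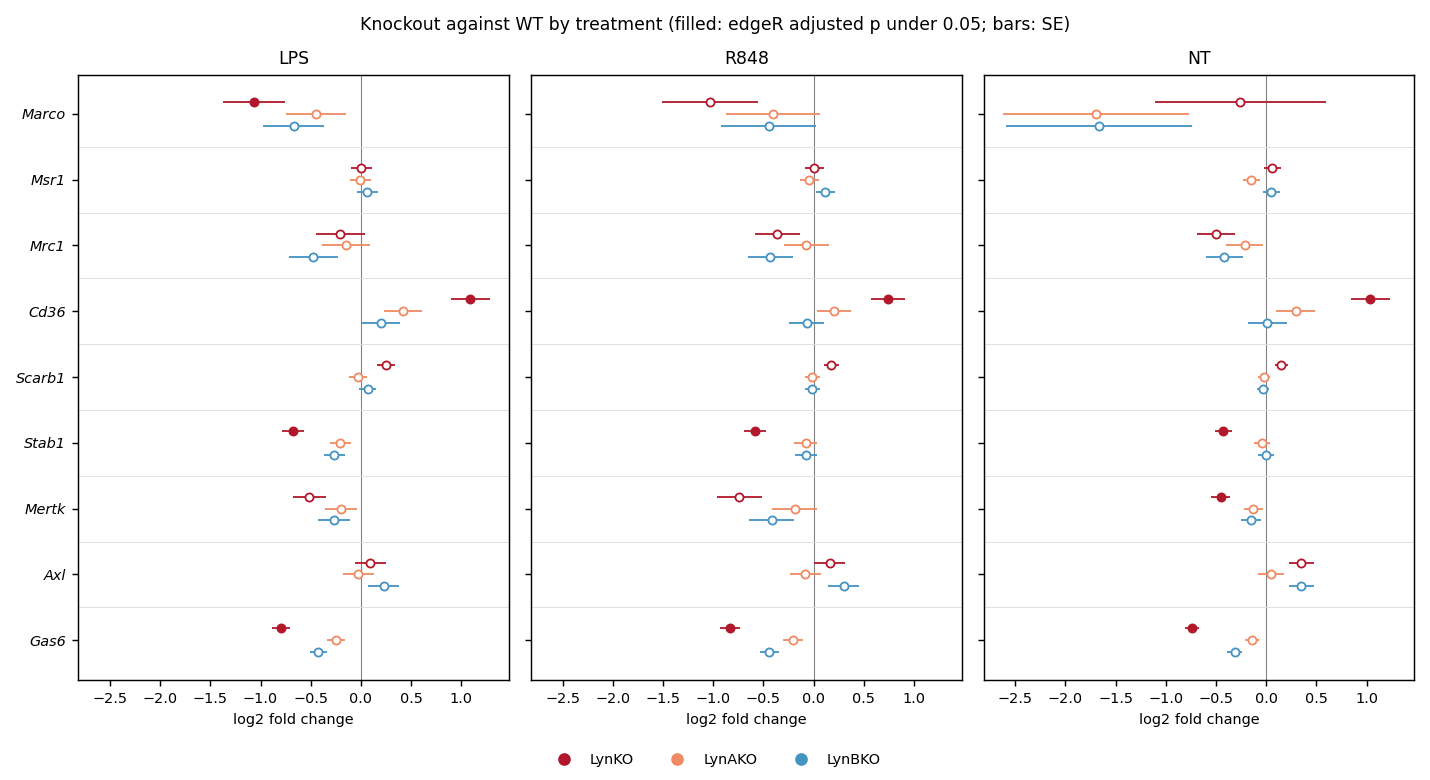
Log2 difference between each knockout and WT (x axis) for each gene, with LPS, with R848 and in NT cells, with the SE as a bar; filled points passed at an edgeR adjusted p under 0.05. In LynKO, Cd36 lies between 0.74 and 1.09 and Gas6 between -0.84 and -0.74, and every point of LynAKO and LynBKO is open.

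Between the isoform knockouts and WT, and between LynAKO and LynBKO, none of the 9 genes passed in edgeR with all libraries of a treatment, the filter and no block. Of all genes, 0.0286%, 0.0215% and 0.00715% differed between LynAKO and WT in NT, LPS and R848 cells, and 0.0644%, 0.0358% and 0% between LynBKO and WT. Between LynAKO and LynBKO 0% differed in each treatment. Lyn itself did not pass between LynBKO and WT with R848 (-0.55 ± 0.09, edgeR adjusted p = 0.0504). It passed in the other comparisons of LynAKO or LynBKO with WT. At an unadjusted p under 0.05 in edgeR there were 0, 2 and 1 of the 9 genes between LynAKO and WT in NT, LPS and R848 cells. Of all 13986 genes there were 671, 747 and 448. Between LynBKO and WT there were 3, 3 and 1 of the 9 (1849, 759 and 636 of all genes). Between LynAKO and LynBKO there were 3, 0 and 2 of the 9 (1173, 353 and 445 of all genes). DESeq2 called 1 of the 9 (Gas6) between LynBKO and WT in each treatment and none in the other 6 comparisons. Gas6 in LynBKO came closest. It had 206, 177, 166 and 166 CPM in the NT libraries of LynBKO, against 233, 223, 216 and 215 CPM in those of WT. With LPS it had 150, 142, 158 and 146 CPM in LynBKO, against 238, 191, 180 and 192 CPM in WT. With R848 it had 146, 126, 135 and 127 CPM in LynBKO, against 212, 195, 152 and 164 CPM in WT.

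All 4 LynBKO libraries of Gas6 thus lay below all 4 of WT in each treatment. The log2 differences were -0.31 ± 0.07 in NT cells, -0.42 ± 0.09 in LPS cells and -0.44 ± 0.10 in R848 cells (edgeR adjusted p = 0.109, 0.116 and 0.28). With the number as a block it passed with LPS (-0.42, adjusted p = 0.0465) and R848 (-0.43, adjusted p = 0.0287), and in DESeq2 it passed in all 3 treatments (adjusted p = 0.00801, 0.00488 and 0.0219). In NT cells it also passed without LynBKO replicate 1 (-0.38, adjusted p = 0.0392). LynAKO and WT libraries overlapped for Gas6 in each treatment, and the differences were -0.14 ± 0.07, -0.25 ± 0.09 and -0.21 ± 0.10. The direct difference between LynAKO and LynBKO was 0.17 ± 0.07 in NT cells, 0.17 ± 0.09 in LPS cells and 0.23 ± 0.10 in R848 cells (edgeR adjusted p = 0.584, 1 and 1), so the isoforms were not shown to differ for Gas6.

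Stab1 with LPS was the other gene whose LynBKO libraries all lay below WT (-0.27 ± 0.11, edgeR adjusted p = 0.856). Cd36, which was high in LynKO, differed by 0.29 ± 0.19 in LynAKO and 0.01 ± 0.19 in LynBKO in NT cells (edgeR adjusted p = 1 and 0.99). Its 95% interval ran from -0.11 to 0.70 in LynAKO and from -0.39 to 0.41 in LynBKO. Over the alternatives the difference ran from 0.0187 to 0.446 in LynAKO and from -0.1 to 0.16 in LynBKO. With no filter on low counts Cd36 passed in edgeR between LynAKO and WT in NT cells (0.29, adjusted p = 0.0248) and with LPS (0.42, adjusted p = 0.002). Mertk differed by -0.13 ± 0.10 in LynAKO and by -0.15 ± 0.10 in LynBKO in NT cells (edgeR adjusted p = 1 and 0.504).

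Other genes of clearance were read from lists, in comparisons where 61.6% (LPS in WT), 56.7% (R848 in WT) and 9.9% (LynKO against WT, NT cells) of all genes were called. Of 11 other scavenger receptors tested, LPS raised 3 and lowered 3 in WT, with a median log2 change of -0.08 (-0.03 over all genes). Olr1, the lectin-like receptor of oxidised lipoprotein, rose by 6.52 ± 0.27 (117 ± 27.5 CPM, against 1.29 ± 0.512 CPM in NT), Cxcl16 by 0.94 ± 0.08 and Scarf1 by 0.74 ± 0.13. The lysosomal receptor Scarb2 fell by 0.40 ± 0.09. Ager (-1.37 ± 0.54, 0.539 ± 0.387 CPM, against 1.40 ± 0.471 CPM in NT) and Scarf2 (-1.03 ± 0.33) also fell, both at low levels. With R848 Olr1 (6.40 ± 0.27), Cxcl16 (0.95 ± 0.08) and Cd163 (0.77 ± 0.16) rose and Scarf2 (-1.33 ± 0.34) and Scarb2 (-0.42 ± 0.09) fell. Between LynKO and WT NT cells, 2 of the 11 were higher and 1 was lower. Cd5l, a secreted scavenger receptor-like protein of macrophages, was higher by 2.04 ± 0.23 (73.8 ± 12.9 CPM in LynKO, against 18.2 ± 8.15 CPM in WT; edgeR adjusted p = 9.28e-06), Lrp1 was higher by 0.44 ± 0.09 and Cxcl16 was lower (log2 -0.33 ± 0.06).

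Of 16 other efferocytosis receptors and bridging molecules, LPS raised 1 and lowered 5 and R848 raised 1 and lowered 7 in WT, with medians of -0.09 and -0.24. Itgav, an integrin chain that binds bridging proteins on dying cells, rose by 2.88 ± 0.11 with LPS (1221 ± 161 CPM, against 168 ± 16.2 CPM in NT). The phosphatidylserine-binding receptor Cd300lf fell by 2.60 ± 0.20, and Thbs1, which bridges dying cells to Cd36, fell by 1.70 ± 0.14 (652 ± 107 CPM, against 2136 ± 213.7 CPM in NT). Cd300a fell by 1.38 ± 0.09. With R848 Itgav rose (2.42 ± 0.11) and Cd300lf (-2.50 ± 0.20), Cd300a (-1.06 ± 0.09) and Thbs1 (-0.72 ± 0.14) fell. In LynKO NT cells 3 of the 16 were higher than in WT and 3 were lower. Havcr2 (0.78 ± 0.10), Itgav (0.74 ± 0.08) and Lrp1 were higher, and Calr (-0.42 ± 0.07), Cd300lf (-0.40 ± 0.08) and Cd300a (-0.28 ± 0.07) were lower.

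Of 16 genes of the engulfment machinery, 12 rose and 1 fell with LPS and 13 rose and 1 fell with R848 in WT, with a median log2 change of 0.44 for both. Crk, an adaptor upstream of Rac, rose by 1.05 ± 0.07 with LPS, and Vav3, a Rac exchange factor, by 1.37 ± 0.13, while Elmo2 fell by 0.98 ± 0.12. The adaptor Bcar1 had the largest change of the list, 3.86 ± 0.59 with LPS and 4.23 ± 0.59 with R848, at a low level (1.73 ± 0.259 CPM with LPS, against 0.124 ± 0.197 CPM in NT). With R848 Crk (1.06 ± 0.07) and Vav3 (0.89 ± 0.13) rose and Elmo2 (-0.78 ± 0.12) fell. Of these 16, 1 differed between LynKO and WT NT cells: Ptk2, focal adhesion kinase, was higher by 0.71 ± 0.13. Of 16 genes of lipid sensing and efflux, LPS raised 2 and lowered 10 in WT (median -0.40), and R848 raised 2 and lowered 8 (median -0.33). The efflux pump Abcg1 fell by 2.22 ± 0.28 with LPS and Rxra, a partner of lipid-sensing nuclear receptors, by 2.14 ± 0.19, while the pump Abca1 rose by 0.85 ± 0.16 and Nr1h2 by 0.36 ± 0.10. Pparg fell by 1.27 ± 0.13 with LPS. With R848 Abca1 (1.08 ± 0.16) and Nr1h3 (0.48 ± 0.12) rose and Abcg1 (-2.00 ± 0.27), Rxra (-1.74 ± 0.19) and Plin2 (-1.22 ± 0.10) fell. In LynKO NT cells 5 of the 16 were higher than in WT and 1 was lower, with a median of -0.02. Lpl, lipoprotein lipase, was higher by 1.32 ± 0.20 and Pparg, the nuclear receptor known to act on the Cd36 gene, by 1.06 ± 0.15 (42.7 ± 7.07 CPM in LynKO, against 20.6 ± 3.80 CPM in WT). Nr1h3 was higher by 0.37 ± 0.09, and Apoe was lower (log2 -0.70 ± 0.16). The edgeR adjusted p was 0.000209 for Lpl, 7.43e-05 for Pparg, 0.0145 for Nr1h3 and 0.00708 for Apoe.

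Of 10 genes of TAM shedding and feedback, LPS raised 8 and lowered 1 in WT and R848 raised 8, with medians of 1.29 and 1.01. Socs3 and Socs1, the inhibitors of cytokine signalling through which TAM receptors act, rose by 8.03 ± 0.18 and 6.97 ± 0.25 with LPS. Rhbdf2, the partner of the sheddase Adam17, rose by 3.10 ± 0.10, and the sheddase Adam10 fell by 0.34 ± 0.10. With R848 the rises were 7.38 ± 0.17 for Socs3, 4.29 ± 0.26 for Socs1 and 2.79 ± 0.10 for Rhbdf2. In LynKO NT cells 0 of the 10 were higher than in WT and 3 were lower: Socs3 (-1.19 ± 0.19), Rhbdf2 (-0.32 ± 0.08) and Adam17 (-0.25 ± 0.08). Of 6 inhibitors of engulfment tested, 4 rose with LPS and 4 with R848 in WT, among them Pilra, by 1.71 ± 0.24 and 1.72 ± 0.24 (34.6 ± 10.86 CPM with LPS, against 10.7 ± 4.24 CPM in NT), and Cd47, by 1.02 ± 0.08 and 0.83 ± 0.08. Siglecg rose by 2.46 ± 0.82 and 2.44 ± 0.82, at a low level (0.665 ± 0.324 CPM with LPS, against 0.126 ± 0.227 CPM in NT). Pilra alone was lower in LynKO NT cells than in WT (-1.39 ± 0.28).

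The genes whose 12 group means of log2 CPM followed a member most closely are given as a description, since the 12 groups share mice and scaling. For Cd36 they were Lpl (r = 0.961), Hdac9 (0.951) and Lair1 (0.946). For Gas6 they were Psap (r = 0.983), Hgsnat (0.980) and Selenop (0.978), for Mertk Tmem154 (0.998), Soat1 (0.998) and Slc46a3 (0.998), and for Msr1 Slc39a14 (0.999), Map4k4 (0.999) and Lztfl1 (0.999). For Marco they were Hnrnpu, Ammecr1l and Fbxo28 (0.990 to 0.993), and for Axl Lgals3bp, Hk1 and Ahnak (0.922 to 0.945). Scarb1 was closest to Mthfd1l, Dnajc12 and Tars2 (0.967 to 0.973) and Mrc1 to Atp5g3, Psmd8 and Edf1 (0.968 to 0.970). Among the 9 themselves, Msr1 and Mertk had an r of -0.977, Cd36 and Gas6 -0.894, and Stab1 and Gas6 0.792.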

How the data were processed

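PolyA RNA of 48 macrophage libraries (12 groups of 4) was measured. The authors deposited raw counts per Ensembl gene, and per the submitters' processing notes used Trimmomatic 0.36, STAR 2.5.2b, featureCounts of Subread 1.5.2, DESeq2 and GRCm38. The sources used here do not give the annotation release, the strand setting or the alleles. A table of variance-stabilised log2 values, also deposited, was only set beside the counts: for each of the 9 genes its Spearman correlation with CPM over the 48 libraries was between 0.9946 and 0.9997.

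Of 49315 genes, 48970 were matched to a symbol, and filterByExpr (minimum count 10, minimum total 15, over the 12 groups) kept 13986. The 9 genes were named with earlier results of these data known, and so were the gene lists. Within a list, the text names up to 3 called genes each way with the largest changes. After TMM scaling, the counts were tested with edgeR 4.0.16 (quasi-likelihood, R 4.3.3), with Benjamini-Hochberg adjustment over the 13986 genes and a threshold of 0.05. Ligands were compared within the 12 libraries of a genotype, genotypes within the 16 libraries of a treatment, and responses in 1 model of 48, which made 30 comparisons. Genotype, ligand and response comparisons share NT and WT libraries. SEs were derived from the F statistic, and 95% intervals from the t distribution. The test was also run on simulated data.

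Replicates are separate mice. The 72 pairs of libraries within groups all differed by more than counting noise (chi-square per degree of freedom 5.32 to 38.7). The numbers mark mice within a genotype: deviations from group means correlated between same-numbered libraries at 0.321 to 0.673 in LynKO, 0.421 to 0.734 in LynAKO and 0.335 to 0.618 in WT. In LynBKO they did between LPS and R848 (0.446 to 0.668) but not with NT (-0.589 to 0.486). Between genotypes the same number also means the same sex by the labels, except for LynBKO NT 2 and NT 3. There every same-numbered pair exceeded 0.1 for LynKO and LynAKO against WT, and for LynBKO against WT with LPS and R848. This did not hold for LynBKO against WT in NT cells (-0.461 to 0.147). Pairs with different numbers reached 0.552 between genotypes (LynAKO 1 and WT 2 with R848, both male) and 0.644 within LynKO. Whether the number marks more than sex between genotypes was not tested. Alternatives were DESeq2 1.42.0, other size factors, no filter, the block, sex as a covariate, 1 model of 48 libraries, leaving out NT libraries with transcripts of both sexes, and leaving out each replicate. The genes closest to Stab1 in pattern are not reported here.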

Additional observations from a re-analysis of the deposited data

Results flagged for a closer look

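Each gene was examined in each group of 4 libraries for a library far from the other 3, which made 108 sets. In 5 of them a library stood apart. The cutoff marks about 1 in 20 sets of unrelated values, but these sets share mice, so that rate cannot say whether 5 is more than chance. Marco had 3.38 CPM in LynKO NT 4, against 0 to 0.331 CPM in the other LynKO NT libraries. That library also held transcripts of both sexes. Mrc1 had 50.5 CPM in LynKO LPS 4, against 24.4 to 28.6 CPM in the others. Cd36 had 360 CPM in LynAKO LPS 1, against 244.5 to 253.4 CPM in the others. It had 445 CPM in LynAKO R848 1, from the same mouse by the labels, against 259 to 270.1 CPM in the others. Stab1 had 378 CPM in LynBKO LPS 2, against 503.5 to 509.2 CPM in the others.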

How the results depend on the processing

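Of the 9 genes, the number called between LPS and R848 depended most on the settings. In LynKO it was 0, but 1 with DESeq2, 4 with no filter, 5 with the replicate block and 1 in 1 model of 48 libraries (0 to 3 without a replicate). In LynAKO it was 2, and 5 with the block (1 to 3 without a replicate). In LynBKO it was 4, and 2 in 1 model (1 to 3 without a replicate). In WT it was 1, but 2 with RLE size factors, 4 with no filter and 5 with the block (0 to 1 without a replicate). Against NT, R848 gave 8 calls in LynAKO (5 to 8 without a replicate), and LPS 6 in LynKO (4 to 9). Between LynKO and WT with R848 there were 3, but 5 with no filter, 5 with sex as a covariate and 5 with the block.

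Between LynAKO and WT the count was 0, but 1 (Cd36) with no filter in NT and in LPS cells. Between LynBKO and WT it was 0, but in NT cells 1 with DESeq2, 4 with no filter, 1 with the block, whose numbers did not pair there (Gas6, -0.32, adjusted p = 0.0444), and 0 to 1 without a replicate. It was 1 with DESeq2, 2 with no filter and 1 with the block in LPS cells, and 1 with DESeq2, 1 with no filter, 1 with the block and 1 in 1 model in R848 cells. Between LynAKO and LynBKO in NT cells it was 0, and 2 (Cd36 and Axl) with no filter. The 4 called with no filter between LynBKO and WT NT cells were Marco, Mrc1, Axl and Gas6. In R848 against NT in LynBKO, where the numbers did not pair, a block with NT 2 and NT 3 exchanged gave Mrc1 0.45 (adjusted p = 0.000177). Beyond the results given with it, the block changed no other call. The cause of these changes was not tested.

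Over all genes, the number called differed by over 1.5 times in some settings. Between LPS and R848 it was 2463 in LynAKO and 4048 with the block (1450 to 3174 without a replicate), 2219 in LynKO (1274 to 3226) and 2932 in WT (1830 to 2542). Between LynKO and WT it was 829 with R848, 1250 with DESeq2, 1753 with the block and 1406 in 1 model (464 to 723), and 1187 with LPS (663 to 1087). Between LynAKO and WT it was 4, 3 and 1 in NT, LPS and R848 cells, 12, 9 and 5 with DESeq2, 124, 84 and 43 with no filter and 2, 5 and 4 with the block. Between LynBKO and WT it was 9, 5 and 0, then 124, 28 and 16 with DESeq2, 445, 128 and 82 with no filter and 14, 16 and 17 with the block. Between LynAKO and LynBKO it was 0 in each treatment, and 191, 13 and 27 with no filter. For the LynKO response it was 14 with LPS and 27 with R848, 66 and 81 with DESeq2, 125 and 148 with no filter, 121 and 173 with the block, 22 and 3 in the 4 groups alone and 6 and 17 without the NT libraries that held transcripts of both sexes.

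Among fold changes of single genes, leaving out a replicate kept 1651 on their side of the threshold, ended 55 calls and added 22. No called fold change reversed. Of 3330 alternative fold changes 157 had the other sign, none of them with a changed call. Another prior count moved none of the 108 group means by more than its SD. Marco's NT values rest on 0 to 71 counts a library, which limits its folds.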
